A study of Mus musculus with 4 samples.

Results

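The genes described here are the nuclear-encoded genes of respiratory complexes II to V, taken from the RNA of late 2-cell (2C) mouse embryos. They were chosen by name only, as the symbols of the subunits and assembly factors of succinate dehydrogenase (*Sdha* to *Sdhd* and Sdhaf), the cytochrome bc1 complex (Uqcr, Uqcc and *Cyc1*), cytochrome c (*Cycs*), cytochrome c oxidase (Cox) and ATP synthase (Atp5), with the genes of the mitochondrial genome left out. The rule found 63 of the 26022 genes in the table, and 62 of them had enough reads to be tested. The embryos came from superovulated and mated ICR females of 7 to 8 weeks, and were cultured in KSOM medium. The control group was left without the drug, and the Mdivi-1 group was cultured from the zygote stage with 200 μM Mdivi-1, an inhibitor of the mitochondrial fission protein DRP1. Embryos of both groups were collected after 16 h of culture. The groups held 8 to 10 pooled embryos, and 2 RNA-seq libraries per group were made by the Smart-Seq2 method. The sources used here do not say if the control medium held the drug's solvent, or if a group's 2 libraries had separate embryo pools. The p-values therefore measure only the spread between these libraries, which may be technical.

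The respiratory chain in the inner mitochondrial membrane passes electrons from NADH and succinate to oxygen and pumps protons, and ATP synthase uses the proton gradient to make ATP. Complex II feeds in electrons from succinate, complex III passes them to cytochrome c, complex IV passes them on to oxygen, and complex V is ATP synthase. Complex II is coded wholly in the nucleus, whereas complexes III, IV and V also hold subunits coded by the mitochondrial genome. Cleavage embryos carry mitochondria and mitochondrial transcripts inherited from the oocyte, and they rely more on pyruvate oxidation than on glycolysis.

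The libraries held 17712075 to 20077326 counts, of which 0.633% to 0.837% were from the 63 genes. All 10 markers of the oocyte and early embryo were detected in the libraries, with summed levels of 14740 to 24580 CPM, counts scaled to a common library size, most of it from *Dppa3*. Of 12 cumulus and granulosa cell markers, *Has2*, *Ptx3* and *Amh* had no count in any library, and the 12 summed to 20.3 to 35.2 CPM. Of 7 sperm and testis markers in the table *Tnp2* had no count, and they summed to 47.7 to 100.3 CPM. Most of it was from *Ldhc*, at 38.7 to 97.8 CPM. Of 6 markers of later lineages, *Sox17* and *Cdx2* were at 0 in all libraries, and the 6 summed to 13.1, 17.3, 29.2 and 27.7 CPM, most of it from *Gata3* (10.5, 9.45, 26.4 and 22.5 CPM). The 6 markers of the 2-cell stage summed to 879, 1483, 1810 and 2474 CPM. Of these, *Zscan4c*, *Zscan4d* and *Zfp352* were higher in both Mdivi-1 libraries. *Usp17le* overlapped between the groups, as did *Obox3* (253, 556, 425 and 510 CPM) and *Tcstv3* (171, 567, 411 and 442 CPM). The sums of the later lineages and of the 2-cell stage were higher in both Mdivi-1 libraries, and their part in the results was not tested. All values are CPM normalized by the TMM method of edgeR unless stated otherwise, and values of 4 libraries are listed in the order control replicate 1, control replicate 2, Mdivi-1 replicate 1 and Mdivi-1 replicate 2. In pooled embryos, fewer cells and less RNA per cell cannot be told apart.

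Genes of complexes III, IV and V tended to lower levels after Mdivi-1, and 6 of the 8 genes of complex II had a positive log2 fold change. The difference between the complexes was not tested. Of the 62 genes tested, 44 (71%) had a negative log2 fold change of Mdivi-1 over control, as had 48.7% of all 14259 genes tested. Their median log2 fold change was -0.48, and that of all genes was 0.03. In 27 genes (43.5%) both Mdivi-1 libraries were below both control libraries, which held for 23.9% of all genes. In 7 genes (11.3%) both were above, which held for 26.1% of all genes. At an unadjusted p under 0.05 by edgeR's quasi-likelihood test, 16 of the 62 (25.8%) were lower and 3 (4.84%) were higher, beside 7.64% lower and 8.27% higher among all genes. After Benjamini-Hochberg adjustment over all genes, edgeR called 0 of the 62, and 0% of all genes. DESeq2 at an adjusted p under 0.05 called *Cox17* and *Cox7c* lower, 2 of the 61 genes with an adjusted p (3.28%), where it called 2.92% of all genes lower. It called 0 of them higher, where it called 3.41% of all genes higher.

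**Figure D1:**
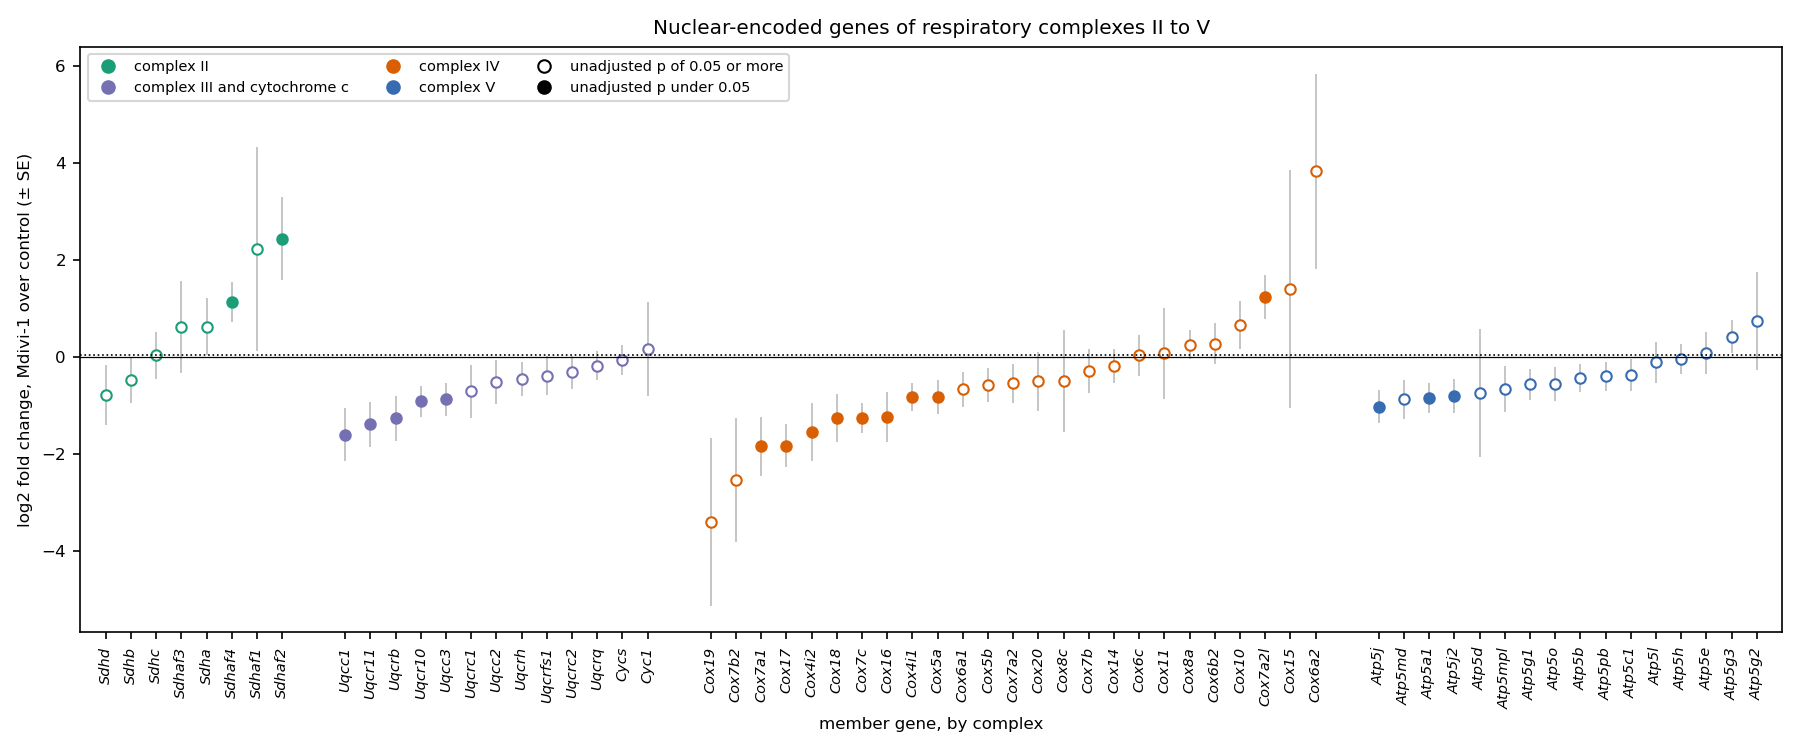
Log2 fold change of Mdivi-1 over control (y axis, with its SE) of the 62 genes tested, in order within each complex; filled points had an unadjusted p under 0.05 by edgeR, and the dotted line is the median of all genes tested (0.03). Complex III holds 12 negative values of 13, and the 3 filled points above 0 are *Sdhaf4*, *Sdhaf2* and *Cox7a2l*.

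These counts depended on single libraries, and control replicate 2 stood apart from the others in the summed level of these genes and in its TMM factor. The summed level of the 63 genes was 6919, 10040, 6996 and 6108 CPM, so control replicate 2 was highest and control replicate 1 was below Mdivi-1 replicate 1. Their share of the raw counts was 0.757%, 0.837%, 0.736% and 0.633%, with both controls above both Mdivi-1 libraries. The TMM factors were 1.096, 0.834, 1.053 and 1.038, and the lowest one raises all CPM of control replicate 2. Control replicate 2 also had the highest level of the oocyte marker *Dppa3* (13040, 21230, 13250 and 10870 CPM). It had the highest sum of the 13 mitochondrial genome mRNAs (138376, 225177, 151947 and 137382 CPM). *Zp3* (198, 270, 149 and 99.2 CPM) and *Ooep* (50.5, 111.5, 94.0 and 107.6 CPM) were also highest in control replicate 2. The rest of the oocyte markers were not, such as *Bmp15* at 184, 273, 662 and 975 CPM and *Gdf9* at 47.7, 54.8, 118 and 88.5 CPM. Their part in the result was not tested. Without control replicate 2, 4 of the 62 genes (6.45%) were lower and 7 (11.3%) were higher at an unadjusted p under 0.05, beside 6.34% and 8.44% of all genes, and the median log2 fold change was -0.23 against 0.08 for all genes. When control replicate 1 was left out, 24 (38.7%) were lower and 3 higher, beside 9.06% and 10.9% of all genes. Without Mdivi-1 replicate 1, 7 of 61 (11.5%) were lower and 0 were higher, beside 3.52% and 4.21% of all genes. Without Mdivi-1 replicate 2, 4 (6.45%) were lower and 2 higher, beside 5.46% and 4.72%. *Cox17* had log2 fold changes from -1.986 to -1.685 by edgeR as 1 library was left out. DESeq2 called it at an adjusted p under 0.05 in none of these fits. The calls of DESeq2 at an adjusted p under 0.05 also moved: without control replicate 1 it called 15 of the genes lower (24.6%) and 1 higher (1.64%), where it called 5.24% of all genes lower and 6.03% higher. With control replicate 2 left out it called 0 lower and 3 higher (*Cox6a2*, *Cox6b2* and *Sdhaf4*, 5%), beside 1.6% and 4.56% of all genes. With Mdivi-1 replicate 1 or 2 left out it called 0 of them, beside 0.29% or 1.26% of all genes lower and 0.492% or 0.593% higher. The number with a negative log2 fold change was 38 to 48 of those tested as 1 library was left out, lowest without control replicate 2. By complex, it was then 2 of 8 in complex II, 11 of 13 in complex III, 14 of 25 in complex IV and 11 of 16 in complex V. In complex II it was 4 of 8 without control replicate 1. The share of all genes with a negative value was not worked out for these fits, so the counts lack that measure. The median of all genes ran from -0.07 without Mdivi-1 replicate 2 to 0.21 without control replicate 1.

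**Figure D2:**
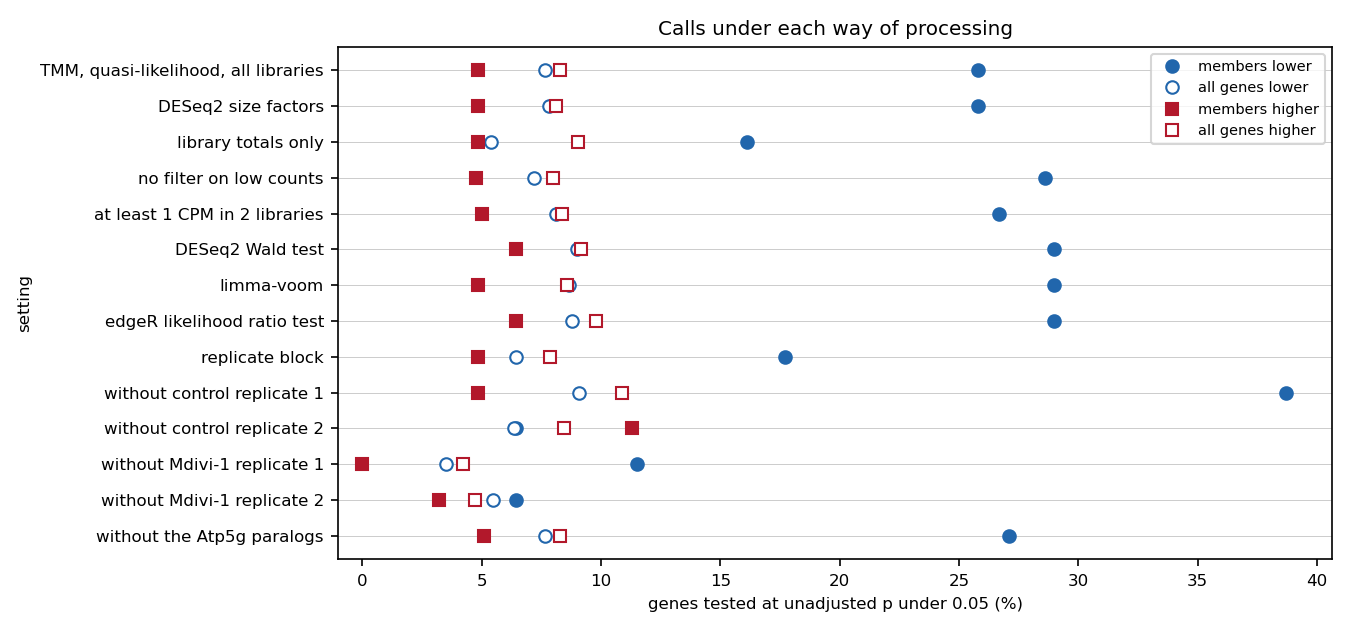
Share of genes tested (x axis, percent) that were lower (circles) or higher (squares) at an unadjusted p under 0.05 under each way of processing (y axis), for the 62 genes (filled) and all genes tested (open). The filled circle lies at 25.8% with all libraries and at 38.7% without control replicate 1, and without control replicate 2 it lies at 6.45%, next to the open circle at 6.34%.

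Many nuclear genes of the respiratory chain carry binding motifs of NRF1, of ETS factors such as GABPA, or of YY1 near their start. RefSeq promoter sequences (build GRCm38.p6) were given for 49 of the 63 genes. In the window from 250 bases before to 50 bases after the start, the NRF1 motif GCGCANGCG was found on either strand in 15 of the 49 (30.6%), against 7.03% of all 27025 genes with a promoter and 13.7% of those tested. The ETS motif CCGGAAG was found in 19 (38.8%), against 9.93% and 18% of those sets. The YY1 motif AAGATGGCG was found in 3 (6.12%), against 1.64% and 3.17%. The end of the ETS motif can share letters with the start of the YY1 motif, and the end of the YY1 motif with the start of the NRF1 motif. Of the 16 lower genes, 10 had a promoter, and 1, 3 and 2 of these held the NRF1, ETS and YY1 motif. Of the 3 higher genes, 1 held the NRF1 motif and 1 the ETS motif. These letters mark a match and not a bound site.

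For 3 genes the whole window of 250 bases before the start is shown, 2 of them lower genes of complex III and the other a higher gene of complex IV, with any of the 3 motifs in capitals. *Uqcr10* lay at chr11:4704345-4704594, *Uqcr11* at chr10:80406822-80407071 and *Cox7a2l* at chr17:83514334-83514583, and all 3 are read from the minus strand. *Uqcr11* held an ETS match from base -66, and the others held no match. The window of *Cox7a2l* lies inside the annotated gene (chr17:83501918-83517330, minus strand) and not before its annotated start.
Uqcr10: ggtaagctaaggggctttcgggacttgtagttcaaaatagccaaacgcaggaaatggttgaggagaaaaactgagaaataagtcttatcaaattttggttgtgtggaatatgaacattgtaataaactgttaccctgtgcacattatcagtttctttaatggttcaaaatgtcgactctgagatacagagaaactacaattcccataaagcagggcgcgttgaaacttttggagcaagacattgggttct
Uqcr11: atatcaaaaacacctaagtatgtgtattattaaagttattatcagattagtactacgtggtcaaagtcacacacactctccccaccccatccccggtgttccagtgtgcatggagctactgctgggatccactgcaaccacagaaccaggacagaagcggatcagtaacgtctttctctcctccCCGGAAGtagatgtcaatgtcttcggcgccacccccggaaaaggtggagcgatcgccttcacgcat
Cox7a2l: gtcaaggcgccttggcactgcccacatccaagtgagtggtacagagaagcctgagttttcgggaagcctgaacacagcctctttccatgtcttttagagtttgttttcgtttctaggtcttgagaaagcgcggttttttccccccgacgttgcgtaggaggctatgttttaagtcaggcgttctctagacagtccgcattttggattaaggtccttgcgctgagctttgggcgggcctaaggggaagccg

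For 5 further genes the stretch around a match is shown, with the match in capitals, as they stand for the lower genes (*Atp5j*, at the first of its 2 listed starts), the higher genes (*Sdhaf2* and *Sdhaf4*) and those without an unadjusted p under 0.05 (*Cycs* and *Sdha*). The coordinates are chr16:84835046-84835074 (*Atp5j*, YY1), chr16:84835021-84835047 (*Atp5j*, ETS), chr19:10525351-10525377 (*Sdhaf2*, ETS), chr1:24005666-24005694 (*Sdhaf4*, NRF1), chr6:50566612-50566640 (*Cycs*, NRF1) and chr13:74350320-74350348 (*Sdha*, NRF1), all on the minus strand. The ETS match of *Sdhaf2* and the NRF1 matches of *Sdhaf4* and *Cycs* are on the opposite strand to the gene, so the capitals read as the reverse complement of the motif. The window before this start of *Atp5j* lies wholly in annotated exons (250 of 250 bases) and inside the gene, and the window before its other start, which is that of the annotated gene, held none of the 3 motifs. The windows of *Sdhaf4*, *Cycs*, *Sdha* and *Sdhaf2* had 250, 177, 140 and 118 of their 250 bases in annotated exons. That of *Sdhaf2* also lies inside the annotated gene (chr19:10500534-10526142, minus strand).
Atp5j YY1, from base -88: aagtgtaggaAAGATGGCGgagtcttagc
Atp5j ETS, from base -61: gctgagggacCCGGAAGcacttaccct
Sdhaf2 ETS, from base -158: ccccgccctcCTTCCGGccccgccggc
Sdhaf4 NRF1, from base -44: ccctcgttgaCGCCTGCGCagagggcgcg
Cycs NRF1, from base -61: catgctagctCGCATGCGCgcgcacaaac
Sdha NRF1, from base -98: cgtttacaggGCGCAGGCGcaccaccact

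The 4 subunits of complex II showed no common direction. *Sdha*, the flavoprotein that oxidizes succinate, was at 13.2, 6.82, 10.7 and 20.1 CPM, with a log2 fold change of 0.62 ± 0.59 (SE). Its levels overlapped between groups, and Mdivi-1 replicate 2 was highest. *Sdhb*, the iron-sulfur subunit, was at 17.6, 29.9, 20.1 and 14.0 CPM, and *Sdhc*, a membrane anchor, was at 15.7, 24.3, 15 and 26.0 CPM. Both overlapped as well. *Sdhd*, the other anchor, was at 8.83, 12.9, 5.53 and 7.09 CPM, and both Mdivi-1 libraries were below both controls (-0.78 ± 0.61). The median log2 fold change of the 4 subunits was -0.22.

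All 4 assembly factors of complex II had a positive log2 fold change, with a median of 1.68, and 2 had an unadjusted p under 0.05. *Sdhaf2*, which helps to attach FAD to *Sdha*, was at 4.05, 1.12, 20.02 and 8.24 CPM. Both Mdivi-1 libraries were above both controls, and the log2 fold change was 2.44 ± 0.85 (adjusted p = 0.24 by edgeR). It was 1.66 without Mdivi-1 replicate 1, and the unadjusted p was then over 0.05. *Sdhaf4*, which binds the flavinated *Sdha* and promotes its joining with *Sdhb*, was at 17.7, 33.3, 58.9 and 52.9 CPM. Here too the groups did not overlap, and the log2 fold change was 1.13 ± 0.41 (adjusted p = 0.245 by edgeR). It was 0.74, 1.05 and 1.19 when control replicate 1, Mdivi-1 replicate 1 or Mdivi-1 replicate 2 was left out, each with an unadjusted p over 0.05. *Sdhaf3* and *Sdhaf1*, which act on the iron-sulfur clusters of *Sdhb*, were variable. *Sdhaf3* was at 2.32, 17.1, 23 and 6.78 CPM, and *Sdhaf1* was at 1.05, 0, 4.40 and 0.573 CPM, and the groups overlapped in both. *Sdhaf3* had a log2 fold change of 0.62, which turned to -0.21 without control replicate 1 and to -0.52 with Mdivi-1 replicate 1 left out, and it was 2.65 without control replicate 2, with an unadjusted p under 0.05. *Sdhaf1* also had such a p without control replicate 1, where the remaining control had no count.

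**Figure D3:**
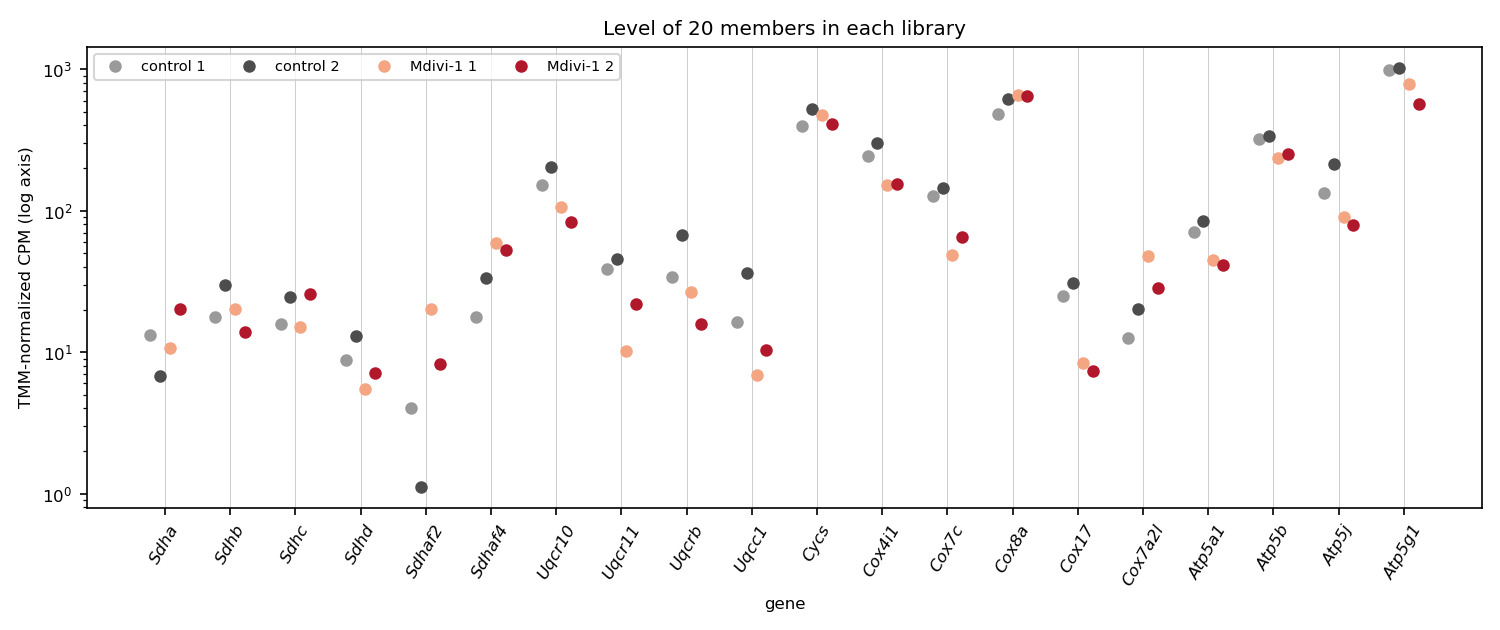
TMM-normalized CPM (y axis, log scale) of 20 genes in each of the 4 libraries, in the order complex II, III, IV and V; grey points are controls and coloured points are Mdivi-1 libraries. *Cox17*, *Cox7c*, *Uqcc1* and *Atp5j* have both coloured points below both grey ones, *Sdhaf2*, *Sdhaf4* and *Cox8a* have them above, and *Cycs* has them between.

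Complex III genes were mostly lower after Mdivi-1. Of 13 genes, *Cycs* included, 12 had a negative log2 fold change, 7 had both Mdivi-1 libraries below both controls, and 5 were lower at an unadjusted p under 0.05. The summed level was 1526, 2084, 1438 and 1254 CPM, with both Mdivi-1 libraries below both controls. The genes with a p under 0.05 were small subunits and assembly factors. *Uqcr10*, a small supernumerary subunit, was at 153, 204, 107 and 82.8 CPM. It was lower in both Mdivi-1 libraries, by a log2 fold change of -0.92 ± 0.31 (adjusted p = 0.236 by edgeR). *Uqcr11*, another small subunit, was at 38.6, 45.2, 10.2 and 21.7 CPM. The Mdivi-1 libraries were again the lower ones, with a log2 fold change of -1.39 ± 0.46 (adjusted p = 0.226 by edgeR). *Uqcrb*, which binds next to the ubiquinone site, was at 34.1, 67.3, 26.5 and 15.7 CPM. The groups did not overlap, and the log2 fold change was -1.27 ± 0.47 (adjusted p = 0.253 by edgeR). Each lost its unadjusted p under 0.05 when some library was left out. *Uqcr10* then had a log2 fold change of -0.72 (control replicate 2), -1.11 (Mdivi-1 replicate 1) or -0.77 (Mdivi-1 replicate 2), *Uqcrb* had -0.72 (control replicate 2) or -0.96 (Mdivi-1 replicate 2), and *Uqcr11* had -0.95 (Mdivi-1 replicate 1).

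The 3 assembly factors that help to make cytochrome b each had both Mdivi-1 libraries below both controls. *Uqcc1* was at 16.2, 36.0, 6.87 and 10.3 CPM, and its log2 fold change was -1.61 ± 0.55 (adjusted p = 0.233 by edgeR). It was -0.95 without control replicate 2 and -1.35 with Mdivi-1 replicate 1 left out, and passed the unadjusted threshold in neither case. *Uqcc3* was at 254, 432, 188 and 186 CPM, and its log2 fold change of -0.88 ± 0.34 (adjusted p = 0.274 by edgeR) was -0.47 without control replicate 2. It was -0.89 with either Mdivi-1 library left out, and in all of these cases the unadjusted p was over 0.05. *Uqcc2* was at 16.7, 17.7, 11.7 and 12.4 CPM, and its log2 fold change was -0.52 ± 0.46. None of the catalytic and core subunits had an unadjusted p under 0.05. *Cyc1*, the heme-bearing cytochrome c1, was at 10.8, 2.23, 11.3 and 3.23 CPM, with replicate 2 of each group low. *Uqcrfs1*, the Rieske iron-sulfur protein, was at 48.9, 30.7, 35.6 and 25.3 CPM, and *Uqcrc1*, a core subunit, was at 11.3, 21.9, 8.96 and 11.3 CPM. The levels of *Uqcrfs1* and *Uqcrc1* overlapped between the groups. The carrier *Cycs* was at 398, 525, 473 and 409 CPM, and its log2 fold change was -0.06 ± 0.31, with both Mdivi-1 libraries between the controls. The other core subunit *Uqcrc2* and the small subunits *Uqcrh* and *Uqcrq* had log2 fold changes of -0.32, -0.45 and -0.18, none with a p under 0.05. For *Uqcrh* it was -0.83 without control replicate 1, with an unadjusted p under 0.05, and 0.01 with control replicate 2 left out.

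Complex IV held the genes with the smallest p. Of 25 genes tested, 17 had a negative log2 fold change, 8 were lower and 1 was higher at an unadjusted p under 0.05, and the median was -0.54. The summed level was 2764, 4541, 3205 and 2914 CPM, so that the groups overlapped and control replicate 2 was highest. *Cox17* (chr16:38346991-38352763, GRCm38), the chaperone that carries copper to the oxidase, was at 24.8, 31.0, 8.37 and 7.35 CPM. Both Mdivi-1 libraries were under both controls, with a log2 fold change of -1.83 ± 0.44 (adjusted p = 0.166 by edgeR, adjusted p = 0.0244 by DESeq2). *Cox7c* (chr13:86044816-86046904, GRCm38), a small subunit of the holoenzyme, was at 126, 145, 48.5 and 65.3 CPM. Here too both Mdivi-1 libraries were the lower ones, and the log2 fold change was -1.26 ± 0.31 (adjusted p = 0.17 by edgeR, adjusted p = 0.0135 by DESeq2). It was -1.06 without Mdivi-1 replicate 1, with an unadjusted p over 0.05 by edgeR. Both genes have a near-identical stretch in 1 other annotated gene, from which uniquely mapped reads can be lost.

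Among the other broadly expressed subunits of complex IV, *Cox4i1*, the regulatory subunit that joins the mitochondrially coded Co1 early in assembly, was at 242, 302, 152 and 155 CPM. The groups did not overlap, and the log2 fold change was -0.83 ± 0.29 (adjusted p = 0.241 by edgeR). Without Mdivi-1 replicate 1 it was -0.82 and without Mdivi-1 replicate 2 it was -0.86, both over the unadjusted threshold. *Cox5a*, which pairs with *Cox4i1*, was at 276, 376, 227 and 140 CPM (-0.83 ± 0.35, adjusted p = 0.305 by edgeR), and *Cox5b*, the zinc-binding subunit, was at 189, 286, 189 and 127 CPM (-0.59 ± 0.35). In *Cox5a* the Mdivi-1 libraries were the lower ones, and in *Cox5b* control replicate 1 and Mdivi-1 replicate 1 were alike. The log2 fold change of *Cox5a* was -0.61 without control replicate 2 and -0.54 with Mdivi-1 replicate 2 left out, and both lost the unadjusted threshold. *Cox8a*, the most abundant of the 63 genes per length, was at 482, 612, 658 and 644 CPM, and both Mdivi-1 libraries were above both controls (0.25 ± 0.30). *Cox6c* was at 116, 280, 202 and 202 CPM, with the Mdivi-1 libraries between the controls. *Cox6a1* was at 191, 199, 159 and 86.3 CPM (-0.67 ± 0.36), and both Mdivi-1 libraries were below both controls. *Cox7a2* was at 354, 743, 401 and 351 CPM (-0.54 ± 0.40) and *Cox7b* at 216, 571, 331 and 314 CPM (-0.29 ± 0.45), and in both control replicate 2 stood above the rest. Without it, the log2 fold changes of *Cox7a2* and *Cox7b* were 0.06 and 0.55, and that of *Cox6c* was 0.77, with an unadjusted p under 0.05. Without control replicate 1, *Cox7a2*, *Cox7b* and *Cox5b* had such a p, at -0.99, -0.83 and -0.87, and so had *Cox6a1* with Mdivi-1 replicate 1 left out, at -1.18.

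Of the 10 assembly factors of complex IV, 3 were lower and 1 was higher at an unadjusted p under 0.05. Besides *Cox17*, they were *Cox16* at 15.3, 26.9, 10.3 and 7.56 CPM and *Cox18*, which inserts part of Co2 into the membrane, at 21, 43.0, 16.1 and 10.5 CPM. In both, the Mdivi-1 libraries were below the controls, with log2 fold changes of -1.24 ± 0.52 (adjusted p = 0.295) and -1.26 ± 0.50 (adjusted p = 0.277) by edgeR. These were -0.81 and -0.68 without control replicate 2 and -1.06 and -1.01 with Mdivi-1 replicate 2 left out, all with an unadjusted p over 0.05, as was -1.49 for *Cox16* without Mdivi-1 replicate 1. *Cox7a2l*, which resembles the Cox7a subunits and links complexes III and IV into supercomplexes, was at 12.6, 20.01, 48.0 and 28.4 CPM. Both Mdivi-1 libraries were above both controls, and the log2 fold change was 1.23 ± 0.45 (adjusted p = 0.253 by edgeR). It was 0.92 without control replicate 1 and 0.80 with Mdivi-1 replicate 1 left out, in both cases with an unadjusted p over 0.05. *Cox19*, a further copper-related factor, was at 0.319, 11.5, 0.215 and 0.886 CPM, so that its log2 fold change of -3.40 ± 1.73 rested on control replicate 2, without which it was 0.75. *Cox10*, which makes heme o, was at 26.2, 12.2, 24.5 and 36.0 CPM (with a log2 fold change of 1.30 without control replicate 1, with an unadjusted p under 0.05), and *Cox15*, which turns it into heme a, was at 1.66 CPM or less in each library. *Cox11*, *Cox14* and *Cox20* had log2 fold changes of 0.07, -0.19 and -0.50, with SE of 0.93, 0.35 and 0.61.

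Several complex IV subunits have isoforms of restricted expression, and their shares were taken on the level per kilobase of exon within each library. The size of a share depends on the annotated lengths, such as 1550 bp for *Cox4i1* and 788 bp for *Cox4i2*. Within a pair the order of the libraries does not. *Cox7a1*, the isoform of heart and skeletal muscle, was at 12.1, 16.3, 4.62 and 3.28 CPM. Both Mdivi-1 libraries were below both controls, with a log2 fold change of -1.85 ± 0.62 (adjusted p = 0.228 by edgeR). It was -1.64 without control replicate 2 or without Mdivi-1 replicate 2, and the unadjusted p was then over 0.05. Its share of *Cox7a1* and *Cox7a2* was 5.69%, 3.73%, 1.99% and 1.62%. *Cox4i2*, an isoform known from lung and from low oxygen, was at 24.3, 50.3, 18.8 and 6.83 CPM (-1.54 ± 0.60, adjusted p = 0.271 by edgeR). Its level was lower in both Mdivi-1 libraries, but its share of *Cox4i1* and *Cox4i2*, of 16.5%, 24.7%, 19.6% and 7.99%, overlapped between the groups. Its log2 fold change was -0.95 without control replicate 2 and -1.01 with Mdivi-1 replicate 2 left out, both with an unadjusted p over 0.05. *Cox7b2*, an isoform of testis, was at 1.96, 7.94, 0.59 and 1.09 CPM, at most 3.02% of the *Cox7b* pair. *Cox6b2*, another isoform of testis, was the second most abundant of the 63 genes per length, at 312, 721, 601 and 649 CPM. Control replicate 1 was lowest and control replicate 2 highest, and the log2 fold change was 0.27 ± 0.42. It was 0.98 without control replicate 2, with an unadjusted p under 0.05. Cox6b1, the broadly expressed isoform, was not found under that symbol among the deposited genes, so no share was worked out for this pair. *Cox6a2*, the muscle isoform of *Cox6a1*, had 0, 7, 81 and 41 counts, which made 0%, 0.238%, 2.74% and 2.49% of the pair. The Mdivi-1 libraries were the higher ones, with an unadjusted p over 0.05 by edgeR and under 0.05 by DESeq2, and also by edgeR with control replicate 2 left out, where the remaining control had no count. *Cox8c*, of testis, was at 1.46 to 6.17 CPM, and *Cox8b*, of muscle, had 1 count in all libraries together and was not tested.

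**Figure D4:**
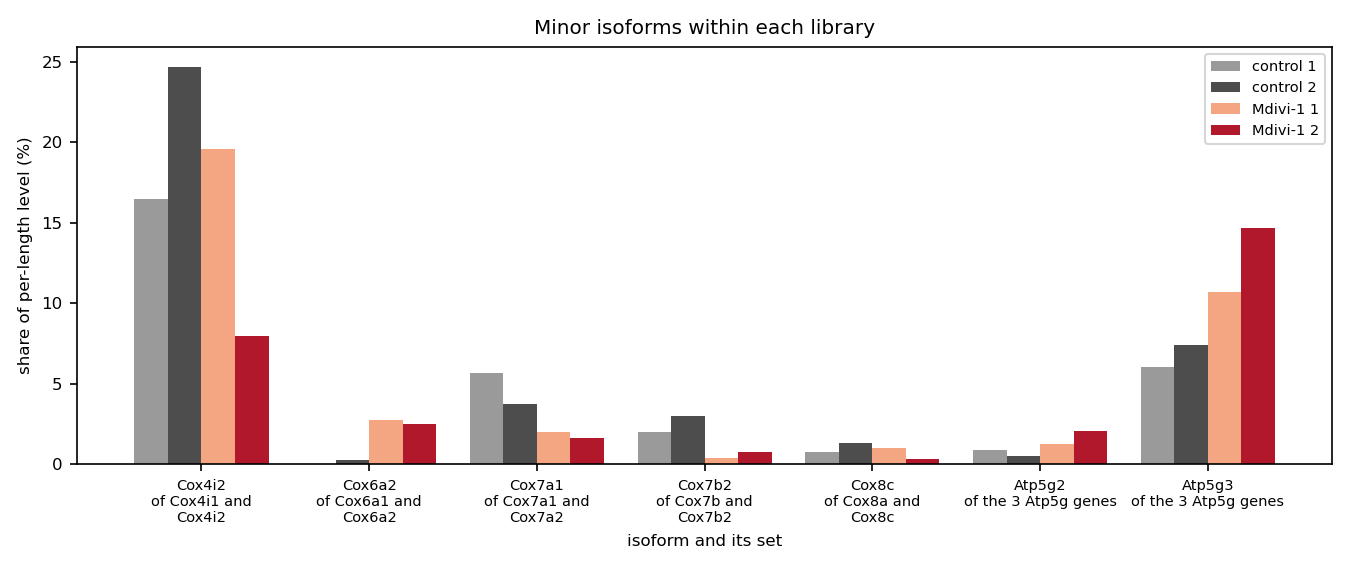
Share of the level per kilobase (y axis, percent) that each minor isoform took within its set, in each of the 4 libraries (bars). The shares of *Cox7a1* and *Cox7b2* were lower in both Mdivi-1 libraries than in both controls, those of *Cox6a2*, *Atp5g2* and *Atp5g3* were higher, and those of *Cox4i2* and *Cox8c* overlapped.

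In complex V, 13 of 16 genes had a negative log2 fold change, 8 had both Mdivi-1 libraries below both controls, and 3 were lower at an unadjusted p under 0.05, with a median of -0.49. The summed level was 2548, 3290, 2195 and 1805 CPM, and both Mdivi-1 libraries were below both controls. In the F1 head, the catalytic beta subunit *Atp5b* was at 320, 338, 237 and 250 CPM, and the alpha subunit *Atp5a1* was at 70.1, 84.6, 44.7 and 41.4 CPM. Both genes were lower in both Mdivi-1 libraries, with log2 fold changes of -0.43 ± 0.28 (adjusted p = 0.512) and -0.85 ± 0.31 (adjusted p = 0.253) by edgeR. For *Atp5a1* it was -0.73 without control replicate 2, -0.91 without Mdivi-1 replicate 1 and -0.81 with Mdivi-1 replicate 2 left out, and the unadjusted p was over 0.05 each time. The gamma subunit *Atp5c1*, which forms the rotating shaft, was at 116, 163, 126 and 89.7 CPM, and the groups overlapped. The delta and epsilon subunits *Atp5d* and *Atp5e* were at 0.376 to 4.07 and 17.4 to 25.9 CPM, and both overlapped.

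All 8 genes of the stalk and the membrane part other than the c-ring had negative log2 fold changes, from -1.03 to -0.05, and 6 of the 8 had them without control replicate 2 and 7 with Mdivi-1 replicate 2 left out. *Atp5j*, the coupling factor of the peripheral stalk, was at 133, 213, 90.2 and 79.6 CPM. The groups did not overlap, and the log2 fold change was -1.03 ± 0.33 (adjusted p = 0.219 by edgeR). It was -0.67 without control replicate 2, -1.12 without Mdivi-1 replicate 1 and -0.96 with Mdivi-1 replicate 2 left out, and lost the unadjusted threshold each time. *Atp5j2*, a subunit of the membrane part, was at 172, 297, 147 and 121 CPM (-0.81 ± 0.35, adjusted p = 0.314 by edgeR), and *Atp5md*, a small subunit of the dimer interface, was at 186, 376, 176 and 130 CPM (-0.87 ± 0.40, adjusted p = 0.333). Both were lower in both Mdivi-1 libraries, though Mdivi-1 replicate 1 was near control replicate 1. The log2 fold change of *Atp5j2* was -0.39 without control replicate 2, -0.97 without Mdivi-1 replicate 1 and -0.70 with Mdivi-1 replicate 2 left out, and its unadjusted p was then over 0.05. For *Atp5md* it was -0.30 without control replicate 2, and it was -1.31 without control replicate 1, where the unadjusted p was under 0.05. The others ranged from *Atp5mpl* at -0.66 ± 0.47 to *Atp5h* at -0.05 ± 0.30, none with a p under 0.05. Without control replicate 1, *Atp5mpl* had a log2 fold change of -1.21 with an unadjusted p under 0.05, and with control replicate 2 left out those of *Atp5mpl* and *Atp5l* turned to 0.19 and 0.21. Among the others were the stalk subunits *Atp5o* (-0.56 ± 0.35) and *Atp5pb* (-0.40 ± 0.29) and the membrane subunit *Atp5l* (-0.12 ± 0.43).

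The c-ring is made of 1 mature protein coded by 3 genes, and these differed in direction. *Atp5g1* was at 984, 1020, 787 and 567 CPM, *Atp5g3* was at 28.5, 36.6, 42.2 and 44.5 CPM, and *Atp5g2* was at 3.28, 1.84, 3.81 and 4.74 CPM. The Mdivi-1 libraries were the lower ones in *Atp5g1* and the higher ones in *Atp5g3* and *Atp5g2*, with log2 fold changes of -0.57 ± 0.32, 0.41 ± 0.34 and 0.74 ± 1.01, none with an unadjusted p under 0.05 by edgeR. Per length, *Atp5g1* took 93%, 92.1%, 88.1% and 83.2% of the set, and *Atp5g3* took 6.06%, 7.44%, 10.7% and 14.7%. These shares depend on the annotated lengths, of 4912 bp for *Atp5g1*, 2181 bp for *Atp5g3* and 1675 bp for *Atp5g2*. *Atpif1*, which binds and inhibits ATP synthase, was at 164, 254, 194 and 162 CPM (-0.23 ± 0.33) and overlapped between groups.

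Levels per kilobase of exon differed widely among the 63 genes. Over the 4 libraries, 2 genes averaged over 500 CPM per kilobase, 15 were at 100 to 500, 22 at 10 to 100 and 24 under 10. *Cox8a* was at 778, 988, 1062 and 1040 CPM per kilobase, and it was followed by *Cox6b2* at 282, 651, 543 and 586. The next were *Cox7a2*, *Uqcc3*, *Cox7b*, *Uqcr10* and *Cox6a1*, with means of 490, 322, 295, 234 and 226 CPM per kilobase. Every library of *Cox8a* was above every library of *Cox6b2*, whereas the ranges of each later pair of neighbours in this order overlapped. The 4 subunits of complex II were among the low genes, with means of 3.08 (*Sdha*), 9.11 (*Sdhb*), 6.23 (*Sdhc*) and 6.98 (*Sdhd*) CPM per kilobase. The abundant genes by this measure were mostly small subunits of complexes III and IV, and their models are short. Length here joins all annotated exons of a gene, such as 619 bp for *Cox8a* and 4912 bp for *Atp5g1*. At a given CPM a short model ranks higher, so the order depends on the annotation. The median exonic length was 1869.5 bp over the genes tested and 4132 bp over all genes tested. By quartile of length, the median log2 fold change of the genes was -0.50 (38 genes), -0.40 (15 genes) and -0.50 (8 genes) in the 3 shorter quartiles, where that of other genes was -0.02, -0.07 and 0.03. The longest quartile held only *Sdhaf2*. Near-identical stretches in other transcripts were found for 25 of the 63, and among the 37 tested genes without one, 9 were lower and 1 was higher at an unadjusted p under 0.05. The other lower genes, *Cox17*, *Cox7c*, *Cox4i1*, *Cox16*, *Uqcr10*, *Uqcr11* and *Uqcrb*, and the higher genes *Sdhaf2* and *Cox7a2l* had such a stretch.

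Complex I and the ribosomal protein genes also had shares of lower genes above the 7.64% of all genes, at an unadjusted p under 0.05 by edgeR. Of 45 genes of complex I, 37 had a negative log2 fold change and 11 were lower and 2 higher at an unadjusted p under 0.05, with a median of -0.41. Of 75 mitochondrial ribosomal proteins, 17 were lower and 2 higher, with a median of -0.63. Of 84 cytosolic ribosomal proteins, all 84 had a negative value and 59 were lower, with a median of -0.97, and their summed level was 30424, 55331, 23418 and 20965 CPM. Among 31 tested assembly factors of complexes III to V outside the name rule, 0 passed in either direction and the median was -0.22. Of these, *Cmc2* was at 25.8, 51.1, 22.0 and 23.5 CPM, *Coa7* was at 53.1, 63.7, 39.4 and 37.5 CPM, and *Fmc1*, of ATP synthase, was at 16.7, 30.0, 52.2 and 38.9 CPM. The Mdivi-1 libraries were below the controls in *Cmc2* and *Coa7* and above them in *Fmc1*, each with an unadjusted p over 0.05 by edgeR. At an adjusted p under 0.05, DESeq2 called lower 5 genes of complex I, 10 mitochondrial and 29 cytosolic ribosomal proteins. It called 1, 1 and 0 of these lists higher. Of the genes described here it called 3.28% lower and 0 higher, beside 2.92% and 3.41% of all genes.

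**Figure D5:**
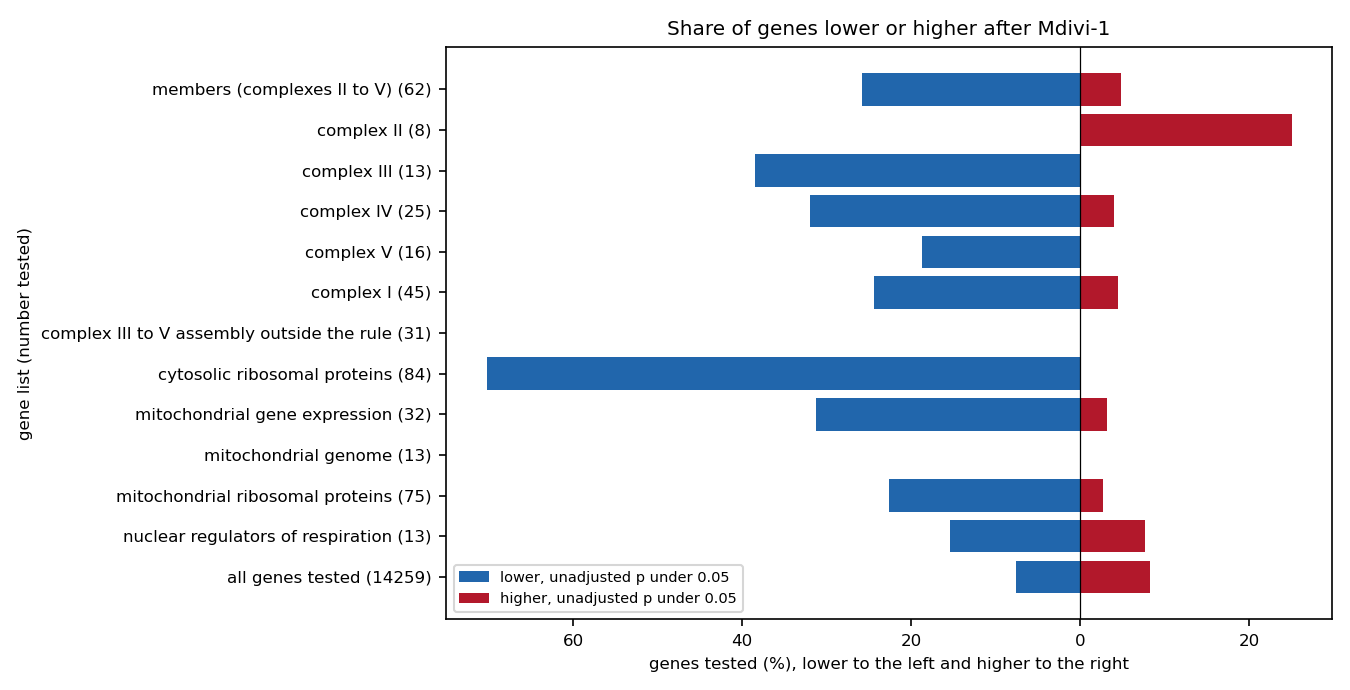
Share of the genes tested in each list (x axis, percent) that were lower (left) or higher (right) at an unadjusted p under 0.05 by edgeR, with the number tested in parentheses. Complexes III, IV and V, complex I and both kinds of ribosomal protein lie to the left of all genes tested, and complex II has 2 of 8 genes on the right.

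The levels of the mRNAs coded by the mitochondrial genome overlapped between the groups. None of its 13 mRNAs had an unadjusted p under 0.05 by edgeR in either direction, and the median was -0.30. *mt-Cytb*, of complex III, was at 70084, 111404, 71142 and 62603 CPM. *mt-Co1*, *mt-Co2* and *mt-Co3*, the core of complex IV, had log2 fold changes of 0.07 ± 0.41, -0.30 ± 0.42 and -0.04 ± 0.45, and *mt-Atp6* and *mt-Atp8*, of complex V, had -0.46 ± 0.46 and -0.50 ± 0.40. In each of these 6 genes control replicate 2 was the highest library. With control replicate 2 left out, *mt-Co3* was higher after Mdivi-1 (0.64), and without control replicate 1, *mt-Cytb*, *mt-Co2*, *mt-Atp6* and *mt-Atp8* were lower, from -0.91 to -0.72, with an unadjusted p under 0.05 in these cases.

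Among the genes of mitochondrial gene expression, 10 of 32 tested were lower and 1 was higher at an unadjusted p under 0.05. *Polrmt*, the mitochondrial RNA polymerase, was at 14.1, 14.1, 2.52 and 3.44 CPM. The Mdivi-1 libraries were well below the controls, with a log2 fold change of -2.24 ± 0.63 (adjusted p = 0.193 by edgeR and 0.0468 by DESeq2). *Trmt10c*, which acts in the processing of mitochondrial transcripts, was at 73.0, 126, 26.8 and 48.1 CPM (-1.41 ± 0.42, and -1.05 with Mdivi-1 replicate 1 left out, where the unadjusted p was over 0.05). *Mterf1b*, a paralog of a mitochondrial transcription terminator, was at 7.51, 10.7, 0.322 and 0 CPM. Its log2 fold change was -5.77 ± 1.48 (adjusted p = 0.173 by edgeR and 0.000533 by DESeq2). The groups did not overlap in *Mterf1b*, *Trmt10c* or *Polrmt*. At an adjusted p under 0.05, DESeq2 called 4 genes of this list lower, *Trmt10c* (adjusted p = 0.0305) among them, and 0 higher. It called 2.92% of all genes lower and 3.41% higher. Of 13 tested nuclear regulators of respiration, 12 had a negative log2 fold change, and 2 were lower and 1 higher at an unadjusted p under 0.05. *Nrf1*, the factor whose motif is given above, was at 68.1, 52.9, 29.6 and 27.4 CPM, with both Mdivi-1 libraries lower (-1.08 ± 0.34, adjusted p = 0.213 by edgeR). It was -0.90, -1.15 and -1.05 without control replicate 1, Mdivi-1 replicate 1 and Mdivi-1 replicate 2, each with an unadjusted p over 0.05. *Creb1* was at 27.6, 7.61, 1.34 and 5.58 CPM (-2.35 ± 0.90), and its log2 fold change was -1.14 without control replicate 1 and -1.66 with Mdivi-1 replicate 1 left out, both with an unadjusted p over 0.05. *Esrrg*, an orphan nuclear receptor of oxidative metabolism, was the higher one, at 25.5, 25, 59.4 and 52.5 CPM (1.15 ± 0.33, and 1.05 with Mdivi-1 replicate 1 left out, where the unadjusted p was over 0.05). *Dnm1l*, which codes for the drug's target DRP1, was at 37.9, 33.1, 93.7 and 91.3 CPM. Both Mdivi-1 libraries were above both controls, with a log2 fold change of 1.38 ± 0.31 (adjusted p = 0.153 by edgeR and 0.00952 by DESeq2).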

How the data were processed

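RNA of late 2C embryos was measured in 2 control and 2 Mdivi-1 libraries. The authors trimmed paired reads with cutadapt 1.16, mapped them with STAR to mm10 (the build from the submitters' processing notes) and deposited raw counts of uniquely mapped reads in exons per gene. Their deposited signal columns hold each count after division by the library's size factor, or the mean over libraries. Their deposited log2 fold changes, Wald score and p-values come from their own comparison. Only the raw counts were used. Smart-Seq2 keeps neither strand nor molecular identifiers, and this counting leaves out reads that overlap more than 1 gene, so overlapping genes lose reads. The 32 genes without a symbol took up to 0.0278% of a library's counts.

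Genes passing filterByExpr (minimum count 10) of edgeR 4.0.16 in R 4.3.3 were normalized by TMM and tested with the two-sided quasi-likelihood test over all 4 libraries, with Benjamini-Hochberg adjustment over the 14259 genes tested. The SE of a log2 fold change was worked back from that test. Missing adjusted p of DESeq2 1.42.0 stayed missing. The alternatives were DESeq2, limma-voom (limma 3.58.1), the likelihood ratio test, DESeq2 size factors, library totals, other filters, a replicate block and leaving out each library (with DESeq2, chosen after seeing the data). No test was made over the genes as a list. The scripts were tested on simulated data.

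Exonic lengths and gene coordinates came from GENCODE M21 (GRCm38), in which all 63 IDs were found, and promoters from RefSeq (GRCm38.p6). A gene's exonic length was that of all its annotated exons joined. Of 53 promoters, 43 had bases 11 to 40 after the start in a transcript of the gene. Near-identical copies were blastn 2.17.0 matches of at least 95% over 150 bases in another gene's transcript.

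The genes and lists were chosen with earlier results of these data known. Named were, per complex, the 4 genes with the smallest p and those with the highest and lowest fold change, the calls of DESeq2, the isoform sets, the core subunits, 6 mitochondrially coded subunits, *Dnm1l*, and up to 3 genes with the smallest p of the other pathway lists. All other names, such as *Uqcc3*, *Cox16* and *Cox18*, were added after their values were seen.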

Additional observations from a re-analysis of the deposited data

How the results depend on the processing

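At an unadjusted p under 0.05, 16 of the 62 genes were lower and 3 higher by the quasi-likelihood test. Scaling by library totals gave 10 lower, and it moved the median of all genes to 0.14, with that of the 62 at -0.31. Among genes without a near-identical copy, which are fewer, 9 were lower and 1 higher (chosen after seeing the data). Leaving out 1 library gave 4 to 24 lower and 0 to 7 higher. At an adjusted p the quasi-likelihood test called 0, beside 16 lower and 3 higher unadjusted. With no filter on low counts 3 genes were lower at an adjusted p, with DESeq2 2 and with the likelihood ratio test 2. DESeq2 called 2.92% of all genes lower. The share of all genes was not worked out for the other adjusted counts, so they cannot be set against it. Leaving out 1 library moved the adjusted counts as well. The other settings kept these counts within 1.5 times, and the median of the 62 was negative under every setting run, from -0.64 to -0.23 when 1 library was left out. *mt-Co3* went from -0.52 to 0.64 as 1 library was left out, and it was -0.04 with all libraries. The cause was not tested. In the shorter window of 250 bases before the start only, the NRF1, ETS and YY1 motifs were found in 20.4%, 26.5% and 2.04% of the 49 genes. These shares were 11.4%, 14% and 1.26% among all genes tested. Of the 10 lower genes with a promoter, 0, 3 and 1 held them.

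The labels do not say if the replicate numbers pair the samples. Deviations from the group means of libraries of the same number correlated at 0.001 over all genes tested and 0.0998 over the 62 genes. With 2 libraries a group this cannot show whether they are paired. With the replicate block 11 genes were lower and 3 higher, the median was -0.45, and 6 named genes went over p 0.05.

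With 2 libraries a group and a biological coefficient of variation of 0.66, genes of few counts such as *Cox15*, *Sdhaf1* and *Cox6a2* had SE above 2 on the log2 scale, which limits what their values show. Leaving out a library leaves a lone sample that is assumed to vary like the other group. Counts of genes whose groups do not overlap were not recomputed with 1 library left out, since that criterion then means less.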
